A study of Mus musculus with 45 samples.

Results

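Expression of 7 tissue kallikrein genes (Klk1, Klk1b21, Klk1b24, Klk1b27, Klk1b3, Klk1b5 and Klk1b22) and of Kap, the kidney androgen regulated protein gene, was followed through the uterus of WT and Plag1KO mice. These 8 genes, of 24422 genes counted, were chosen by their gene symbols after differences between mice and between tissues had been seen in these same libraries. The levels by mouse and by layer are therefore a description, with no test, and tests are given for KO against WT and for the genotype by layer interaction. In all 42 samples together, Klk1 held 16331 counts, Kap 3079, Klk1b24 2044, Klk1b21 1973, Klk1b27 257, Klk1b3 15, Klk1b5 6 and Klk1b22 0.

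The samples came from 14 sexually mature CD-1 females, an outbred stock, of which 7 were WT and 7 carried the knockout of Plag1, a zinc finger transcription factor (KO). Each female was superovulated with 5 IU of PMS followed 2 days later by 5 IU of hCG and was killed on the day after. Hormone treatment was thus shared by both genotypes, and no untreated group was included. Superovulated females of the study were mated with WT males for zygotes or left unmated for oocytes. Which of these applied to each mouse is not given in the sources used here. From each mouse the uterus, the scraped endometrium and the remaining myometrium were sequenced by STRT RNA-seq, which counts the 5′ ends of transcripts and joins reads of the same molecule by a molecular tag. The 6 groups (WT or KO, in uterus, endometrium or myometrium) held 7 mice each, and mice keep the same number in all 3 tissues.

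The 45 libraries held 256298 to 1222627 gene counts each, so 3 counts, taken here as the floor of detection, corresponded to 1.26 to 9.85 CPM, the count scaled to library size with TMM factors, depending on the sample. The targeted gene, Plag1, reached at most 1 count in any sample, with 2 counts in 21 WT samples and 5 in 21 KO samples, so its count could not check the genotype labels. In the mutant allele, as the paper describes it, lacZ takes the place of the Plag1 open reading frame. Whether transcripts of that allele add 5′ ends to the Plag1 count was not tested. The layer score, which is the mean log2 level of 4 epithelial markers minus that of 4 smooth muscle markers, was −4.23 or lower in every myometrium and −3.86 to 3.56 in the endometrium. Endometrium of WT mouse 3 and of KO mouse 13 had the lowest endometrial scores of their genotypes (−3.86 and −3.16, against medians of 0.0099 and 1.94). Both scores lay within the range of the uterus samples of the same genotype, −4.80 to −2.73 in WT and −3.83 to −2.64 in KO. Of the markers of kidney tubule, Slc34a1 and Slc22a6 were at 0 in every sample, Umod held 27 counts in all and Lrp2 231. Of the pancreatic and salivary markers, Pnlip and Cpa1 were at 0 in every sample, Prol1 held 10 counts in all and Cela1 was found in every sample at up to 49.2 CPM. The oviduct marker Ovgp1 was at 5024 CPM in the endometrium of WT mouse 8 and at 467 CPM or less in every other sample.

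Tissue kallikreins are secreted serine proteases. Klk1 releases kinin peptides from kininogens, and kinins act on vessels and smooth muscle through the bradykinin receptors. The mouse carries a cluster of close copies of Klk1, the Klk1b genes, some of which are best known from the salivary gland, where their products process growth factors. Kap is known as an abundant androgen-responsive transcript of the kidney proximal tubule.

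The 7 kallikrein genes lie on the plus strand of chromosome 7 in the NCBIM37 (mm9) genome, in a cluster of 14 Klk1 and Klk1b genes with Gencode annotation that spans 279 kb. From left to right they are Klk1b27 (chr7:51307660-51312075), Klk1b21 (chr7:51357662-51361944), Klk1b22 (chr7:51368043-51372292), Klk1b24 (chr7:51443606-51447822), Klk1b3 (chr7:51453561-51457721), Klk1b5 (chr7:51471844-51476073) and Klk1 (chr7:51480807-51484987). Each has 5 exons, and Klk1 overlaps an antisense gene, Gm10109. Kap lies on the minus strand of another chromosome (chr6:133799873-133803685) and has 4 exons.

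Because the method counts 5′ ends, the sequence just before each gene was set beside its counts. The windows printed here are the 120 bases that end 75 bases before the start codon of each member, all of them outside the annotated exons, written 5′ to 3′ on the strand of the gene, and capitals mark the longest run that Klk1b21, Klk1b24 and Klk1b27 share.
Klk1b21, chr7:51357539-51357658 (+ strand): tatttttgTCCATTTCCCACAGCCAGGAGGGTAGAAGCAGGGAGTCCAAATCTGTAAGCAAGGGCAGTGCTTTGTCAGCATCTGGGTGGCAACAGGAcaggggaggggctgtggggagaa
Klk1b24, chr7:51443448-51443567 (+ strand): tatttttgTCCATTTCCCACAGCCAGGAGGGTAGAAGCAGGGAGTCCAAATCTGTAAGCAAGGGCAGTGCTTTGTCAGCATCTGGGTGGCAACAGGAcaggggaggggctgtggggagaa
Klk1b27, chr7:51307516-51307635 (+ strand): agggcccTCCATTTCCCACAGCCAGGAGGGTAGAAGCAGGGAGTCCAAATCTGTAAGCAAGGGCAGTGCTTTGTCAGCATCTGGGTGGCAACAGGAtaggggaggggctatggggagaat
Klk1, chr7:51480654-51480773 (+ strand): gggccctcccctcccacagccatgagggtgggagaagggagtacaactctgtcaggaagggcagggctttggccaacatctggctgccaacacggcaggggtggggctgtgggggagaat
Klk1b3, chr7:51453422-51453541 (+ strand): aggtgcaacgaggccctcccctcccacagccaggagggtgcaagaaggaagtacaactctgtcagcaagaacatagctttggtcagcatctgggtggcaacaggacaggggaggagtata
Klk1b5, chr7:51471676-51471795 (+ strand): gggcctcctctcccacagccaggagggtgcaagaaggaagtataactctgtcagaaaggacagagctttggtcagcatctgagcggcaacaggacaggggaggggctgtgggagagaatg
Klk1b22, chr7:51367877-51367996 (+ strand): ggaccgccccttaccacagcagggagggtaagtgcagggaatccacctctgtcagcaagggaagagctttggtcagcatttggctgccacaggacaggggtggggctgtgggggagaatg
Kap, chr6:133803717-133803836 (− strand): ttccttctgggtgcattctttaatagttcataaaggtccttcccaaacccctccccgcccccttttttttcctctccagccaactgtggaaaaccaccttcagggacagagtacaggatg

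The windows of Klk1b21, Klk1b24 and Klk1b27 shared an exact run of 89 bases. These are the 3 Klk1b genes with the highest counts in the uterus. The run occurred 3 times in the whole genome on either strand, before these same genes, and was in the window of none of the other 11 annotated family genes. The windows of Klk1b21 and Klk1b24 were identical (100%), each had 92.5% identity with that of Klk1b27, and the trio had 75 to 89.2% identity with the other family genes. Other pairs of the family, whose genes held few counts or none apart from Klk1, ranged from 70.0 to 95.0%, with Klk1b11 and Klk1b16 as the closest pair, and Klk1 had 71.7 to 85% identity with the rest of the family. Shared runs of other sets of windows were not measured. Klk1, the family gene with the most counts, shared at most 11 bases with the run. The whole transcripts of the trio were also closest to each other in the family, at 91.3 to 91.8% identity. The trio was compared after its counts were known, and the shared run is a description of sequence only.

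Almost all family counts fell on 4 genes. The table held 15 Klk1 and Klk1b genes with 20679 counts in all, of which Klk1, Klk1b21, Klk1b24 and Klk1b27 took 99.6%, and the trio of Klk1b genes 20.7%. Klk1b3 reached 3 counts or more in 3 of 42 samples, with 4 as its highest count, and Klk1b5 never exceeded 2 counts. Klk1b22 was at 0 in all 42 samples, which allows up to 3 counts, or 1.26 to 9.85 CPM, in any one of them. The other 8 family genes held 53 counts together, so the rest of the cluster was at or near the floor.

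Copies this similar can exchange reads, and how the counting treated reads with several positions is not given in the sources used here. Of the 61 words of 40 bases in the first 100 bases of each transcript, those found in no other family transcript numbered 33 (54.1%) for Klk1, 51 (83.6%) for Klk1b21, 17 (27.9%) for Klk1b24 and 39 (63.9%) for Klk1b27. For the members near 0 they numbered 48 (78.7%) for Klk1b3, 49 (80.3%) for Klk1b22 and 19 (31.1%) for Klk1b5, whose transcript was 93.5% identical to that of Klk1. The split of counts between family genes is uncertain to that extent, and the counts of Klk1b24 and Klk1b5 in particular rest on few distinguishing positions.

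Klk1 varied widely between mice of a group. In the uterus of WT mice it was at 4.22 CPM in mouse 1, 240.0 in mouse 3, 218 in mouse 5, 27.4 in mouse 7, 9.48 in mouse 8, 844 in mouse 10 and 7.99 in mouse 12. In the uterus of KO mice it was at 228 CPM in mouse 2, 165 in mouse 4, 42.2 in mouse 6, 1.64 in mouse 9, 132 in mouse 11, 3844 in mouse 13 and 1244 in mouse 14. WT uterus thus covered a 200-fold range (4 counts in its lowest sample), and the genotypes overlapped. The lowest KO uterus held 1 count, under the floor, so its order against the lowest WT one is uncertain.

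The endometrium had the same mice at the top. WT endometrium was at 0 CPM in mouse 1, 53.4 in mouse 3, 181 in mouse 5, 33.8 in mouse 7, 26.7 in mouse 8, 1950.2 in mouse 10 and 8.16 in mouse 12. KO endometrium was at 501 CPM in mouse 2, 737 in mouse 4, 75.8 in mouse 6, 21.2 in mouse 9, 86.0 in mouse 11, 3028 in mouse 13 and 1147 in mouse 14. Mouse 10 alone held 86.6% of the summed Klk1 level of WT endometrium, and without it the WT mean fell to 50.5 CPM, while mouse 13 held 54.1% of the KO sum.

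In the myometrium Klk1 was lower. WT myometrium was at 1.66 CPM in mouse 1, 21.6 in mouse 3, 204 in mouse 5, 7.99 in mouse 7, 0 in mouse 8, 89.1 in mouse 10 and 17.1 in mouse 12. KO myometrium was at 100.9 CPM in mouse 2, 49.8 in mouse 4, 0 in mouse 6, 3.28 in mouse 9, 24.5 in mouse 11, 419 in mouse 13 and 189 in mouse 14. Mouse 5 was the highest WT mouse here, although it ranked below mice 3 and 10 in the uterus, and mouse 13 was again the highest KO mouse.

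**Figure D1:**
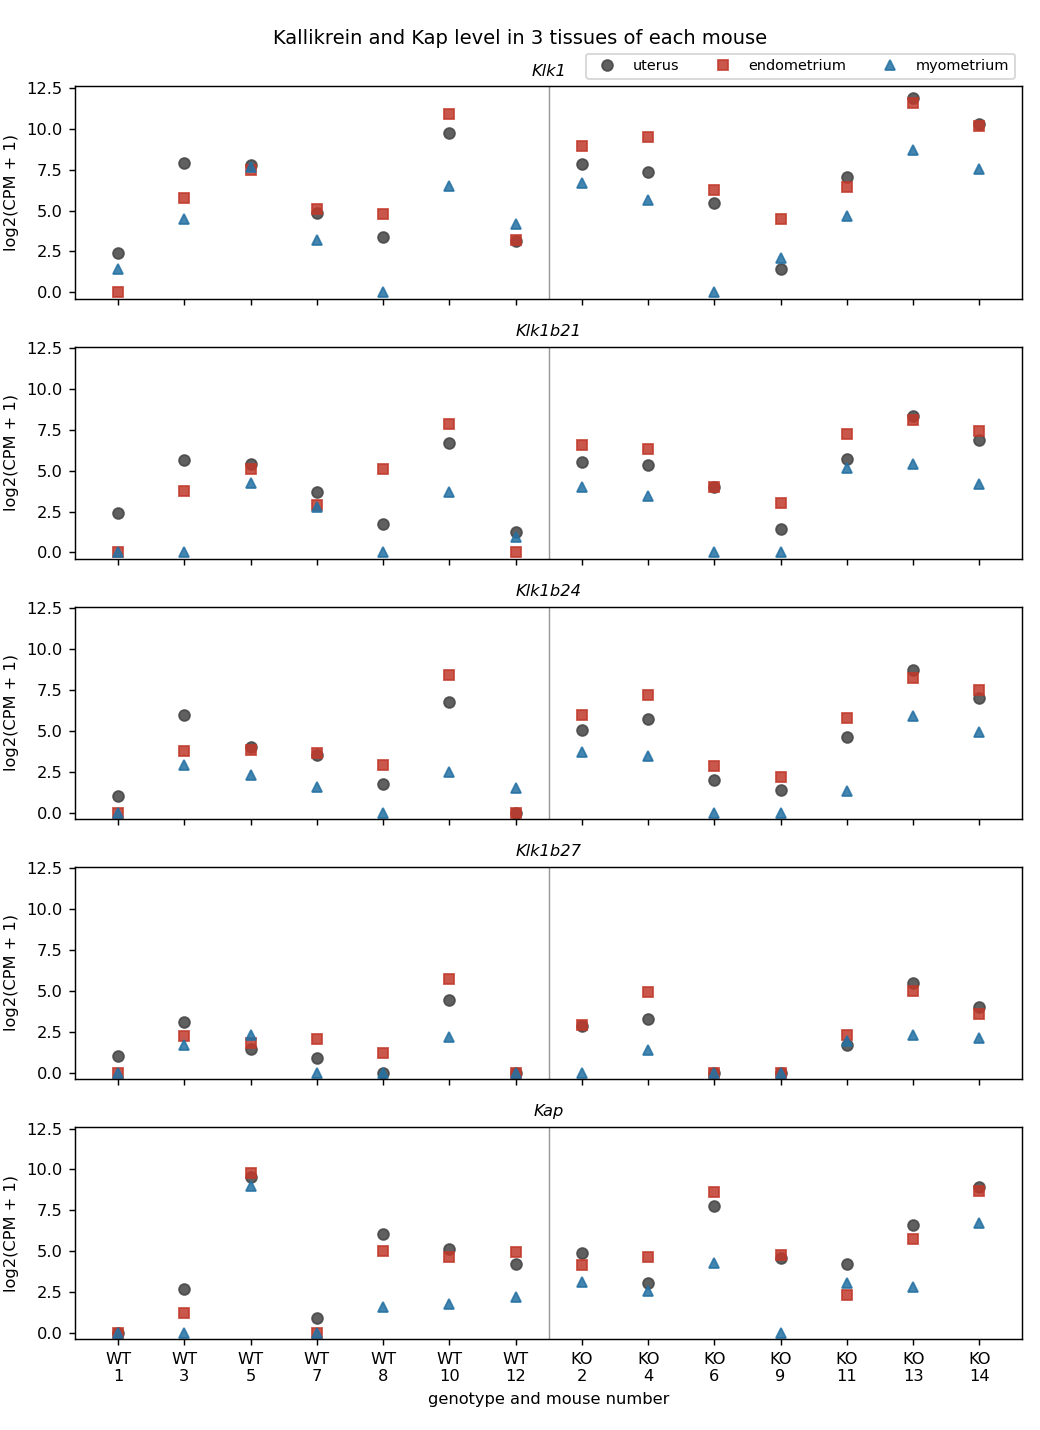
Level of Klk1, Klk1b21, Klk1b24, Klk1b27 and Kap, as log2(CPM + 1), in the uterus (circles), endometrium (squares) and myometrium (triangles) of the 7 WT and 7 KO mice, 1 point per sample. The 4 kallikreins were highest in KO mouse 13 or WT mouse 10 in uterus and endometrium, and Kap was highest in WT mouse 5 in all 3 tissues.

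The 3 Klk1b genes followed Klk1 at a lower level. Klk1b21, one of the copies, ranged in the uterus from 1.33 CPM (mouse 12) to 102 CPM (mouse 10) in WT and from 1.64 CPM (mouse 9) to 331 CPM (mouse 13) in KO. Klk1b24 ranged there from 0 CPM (mouse 12) to 108 CPM (mouse 10) in WT and from 1.64 CPM (mouse 9) to 427 CPM (mouse 13) in KO. Klk1b27 reached 20.7 CPM in WT mouse 10 and 44.3 CPM in KO mouse 13 and was at 0 in WT mice 8 and 12 and KO mice 6 and 9. The highest and lowest mice were thus nearly the same for each copy.

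In the endometrium Klk1b21 was at 0, 12.7, 33.6, 6.44, 33.0, 226 and 0 CPM in WT mice 1, 3, 5, 7, 8, 10 and 12. It was at 94.1, 77.9, 15.2, 7.08, 152, 277 and 175 CPM in KO mice 2, 4, 6, 9, 11, 13 and 14, so that KO mouse 11 ranked above mouse 2 here but not for Klk1. Klk1b24 in the same order was at 0, 12.7, 12.9, 11.3, 6.35, 346 and 0 CPM in WT and at 62.1, 143, 6.06, 3.54, 53.8, 305 and 180.4 CPM in KO. Mouse 10 stood far above the other 6 WT mice for both genes. In the myometrium Klk1b21 reached 18 CPM in WT and 41.5 CPM in KO, Klk1b24 6.49 and 59.3 CPM, and Klk1b27 4.00 and 3.96 CPM, and several mice of each genotype were at 0 for each of these genes.

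Across the 14 mice, log2 CPM of Klk1 had a Pearson r with that of Klk1b21 of 0.98 in uterus, 0.91 in endometrium and 0.84 in myometrium, and with that of Klk1b24 of 0.96, 0.95 and 0.87. These points share the library, its depth and possibly reads of near-identical copies. They describe how the 4 counted genes of the cluster moved together between mice.

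Kap and Klk1 were highest in different mice, WT mouse 5 and KO mouse 13 in each tissue, but some mice were high for both. KO mouse 14 was next highest for both genes in the uterus, at 1244 CPM of Klk1 and 484 CPM of Kap. In the uterus Kap was at 0 CPM in WT mouse 1, 5.36 in mouse 3, 751 in mouse 5, 0.856 in mouse 7, 66.3 in mouse 8, 33.8 in mouse 10 and 17.3 in mouse 12. KO uterus was at 29.0 CPM in mouse 2, 7.31 in mouse 4, 217 in mouse 6, 23.0 in mouse 9, 17.4 in mouse 11, 96.3 in mouse 13 and 484 in mouse 14. Mouse 5 therefore held 85.9% of the WT sum, and without it the WT mean was 20.6 CPM.

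The same mice, WT 5 and KO 14 and 6, were highest in the other tissues. Endometrial Kap was at 0, 1.27, 884, 0, 30.5, 23.9 and 30.3 CPM in WT mice 1, 3, 5, 7, 8, 10 and 12, and at 16.9, 23.8, 386, 26.5, 4.03, 52.3 and 402 CPM in KO mice 2, 4, 6, 9, 11, 13 and 14. In the myometrium Kap was at 504 CPM in WT mouse 5 and at 3.59 CPM or less in the other 6 WT mice, and at 104 CPM in KO mouse 14, 17.9 CPM in KO mouse 6 and 7.64 CPM or less in the other 5 KO mice. WT and KO overlapped in every tissue. The r between log2 CPM of Klk1 and Kap over the 14 mice was 0.43 (uterus), 0.42 (endometrium) and 0.52 (myometrium), and that between Klk1b24 and Kap was 0.24, 0.19 and 0.31, each below the values among the kallikreins.

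Levels in the tissues of a mouse went together. After the genotype mean of each tissue was subtracted, the r of log2 CPM between uterus and endometrium over 14 mice was 0.91 for Klk1, 0.82 for Klk1b21, 0.92 for Klk1b24 and 0.95 for Kap. Between endometrium and myometrium it was 0.81, 0.76, 0.73 and 0.84 in the same order. The median over the 4 genes and 3 pairs of tissues was 0.84 (range 0.73 to 0.95), beside a median of 0.057 over 8179 genes with an average log2 CPM of at least 3. The members were chosen with differences between mice known, and they spread more between mice than most genes. These medians are therefore no like comparison and do not show that the members stand out. Spearman's rho over the same 12 pairs was lowest for Kap between endometrium and myometrium (0.61) and for Klk1b21 between uterus and myometrium (0.70), and highest for Klk1b24 between uterus and endometrium (0.95). Without the 2 mice farthest from the median, Klk1 kept an r of 0.75 to 0.89, whereas Kap fell to 0.61 in both pairs with myometrium. The samples of a mouse share the animal and the library pool.

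**Figure D2:**
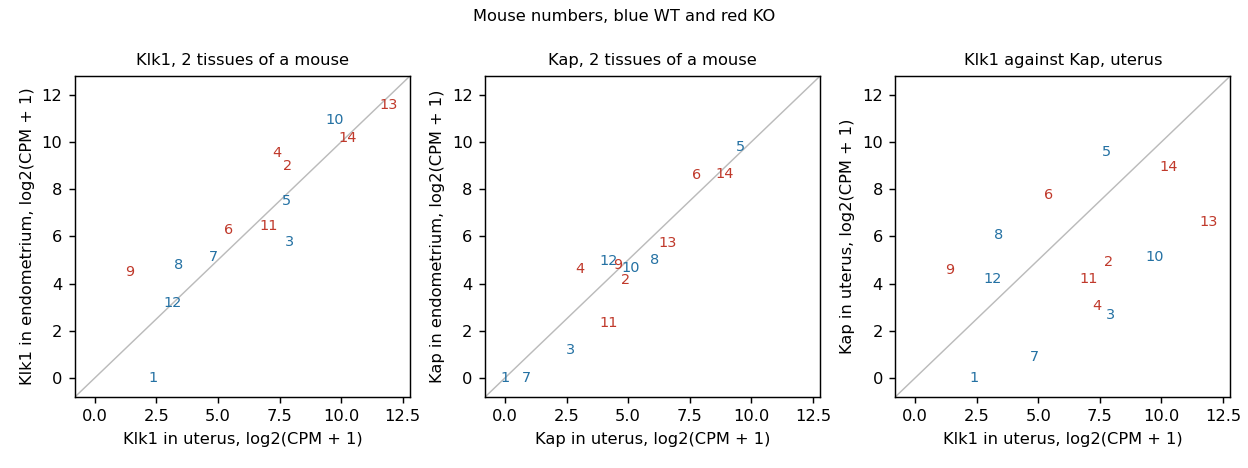
Log2(CPM + 1) of Klk1 in uterus against endometrium, of Kap in uterus against endometrium, and of Klk1 against Kap in uterus, with each of the 14 mice drawn as its number (blue WT, red KO) and the line of equality in grey. Mice lie along the line for the same gene in both tissues (r = 0.91 for Klk1 and 0.95 for Kap after genotype means were removed). In uterus Klk1 was highest in KO mouse 13 and Kap in WT mouse 5, with KO mouse 14 next for both (r = 0.43).

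The spread itself was near the extreme of the table, and it was used in choosing the genes. The SD of log2 CPM between mice within genotype for Klk1 was 2.96 (uterus), 2.77 (endometrium) and 2.45 (myometrium), and for Kap 2.45, 2.63 and 2.24, beside medians of 0.56, 0.59 and 0.55 over the 8179 genes. In the uterus no gene of that set had a larger SD than Klk1, and 4 had a larger one than Kap.

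Libraries with the same mouse and tissue label were also compared. The labels do not say whether such libraries were made from the same RNA. Endometrium of KO mouse 13 was sequenced as 3 libraries, in which Klk1 was at 2157, 4113 and 3045 CPM (unscaled) (95% exact Poisson intervals 2063 to 2254, 3954 to 4277 and 2932 to 3162). Myometrium of WT mouse 12 was sequenced as 2 libraries, at 4.33 and 34.2 CPM (0.524 to 15.6 and 19.9 to 54.7). Libraries with the same label thus differed beyond counting error for Klk1. Kap differed less between the 3 libraries of mouse 13, at 53.9, 52.2 and 48.3 CPM.

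Within a mouse, the members were higher in endometrium than in myometrium in most animals. In bulk tissue, fewer cells of a type and less RNA per cell cannot be told apart. Klk1 was higher in endometrium in 4 of 7 WT mice and in 7 of 7 KO mice, Klk1b21 in 5 and 7, Klk1b24 in 5 and 7, Klk1b27 in 4 and 5, and Kap in 5 and 6. For Klk1b27, 2 WT and 2 KO mice were at 0 in both layers and 1 WT mouse went the other way. Some of the orders rest on counts under the floor in both layers. Klk1b27 had 2 counts in endometrium against 0 in myometrium in WT mouse 7, and 1 against 0 in WT mouse 8. For Kap, 2 WT mice were at 0 in both layers and 1 KO mouse went the other way. The WT exceptions for Klk1 were mice 1, 5 and 12. Of these, mouse 1 was under the floor in both layers, at 0 and 1.66 CPM.

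The log2 fold change of endometrium over myometrium in WT was 2.73 ± 0.99 (SE, n = 7 mice) for Klk1, 3.11 ± 0.88 for Klk1b21, 4.34 ± 1.02 for Klk1b24, 2.72 ± 0.96 for Klk1b27 and 0.88 ± 1.16 for Kap. In KO it was 2.82 ± 0.86 for Klk1, 2.70 ± 0.61 for Klk1b21, 2.74 ± 0.73 for Klk1b24, 2.72 ± 0.81 for Klk1b27 and 2.54 ± 0.83 for Kap. The median over the 5 members that passed the filter on low counts was 2.73 in WT and 2.72 in KO, beside 0.0053 and 0.075 over all genes tested. That fit takes the layers as separate samples. With the mouse as a block the medians were 2.21 in WT and 2.80 in KO, and the WT values 1.52 ± 0.36 for Klk1, 3.09 ± 0.60 for Klk1b24 and 2.14 ± 0.43 for Kap. The mean of the differences in log2 CPM within WT mice was smaller, at 1.30 ± 2.06 (SD, n = 7) for Klk1 and 1.45 ± 2.02 for Klk1b24, and within KO mice it was 2.87 ± 1.11 and 2.45 ± 0.92. DESeq2 gave 0.076 for Klk1, 0.37 for Klk1b27, 1.38 for Klk1b24 and 2.57 for Kap in WT. The WT values rested on mouse 10, without which the WT median was 0.97, that of Klk1 0.27 and that of Klk1b24 1.63, and Kap in WT rose to 3.09 without mouse 5.

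Against the undivided uterus the endometrium was mixed. Klk1 was higher in endometrium than in uterus in 4 of 7 WT and 4 of 7 KO mice, Klk1b21 in 2 and 6, Klk1b24 in 3 and 6, and Kap in 2 and 3. The mean log2 difference of Klk1b21 was −0.11 ± 1.59 (SD, n = 7) in WT and 0.71 ± 0.64 in KO, and that of Klk1b24 −0.016 ± 1.15 and 0.65 ± 0.61, and the genotypes were not tested against each other here. Uterus exceeded myometrium in 12 of 14 mice for Klk1, 14 for Klk1b21, 13 for Klk1b24 and 13 for Kap. Myometrium was thus the lowest tissue in most mice, while over both genotypes the difference between endometrium and uterus was within its spread between mice for Klk1 and Kap, with a mean log2 difference of 0.32 ± 1.28 (SD, n = 14 mice) for Klk1 and −0.21 ± 0.83 for Kap.

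Cell markers moved with the same contrast. The 4 epithelial markers summed to 635 to 1770 CPM in WT and 968 to 2319 CPM in KO endometrium, against 58.2 to 614 and 55.7 to 422 CPM in myometrium. The 4 smooth muscle markers summed to 330 to 6974 and 199 to 8223 CPM in endometrium, against 8631 to 25153 and 11113 to 20947 CPM in myometrium. The highest muscle sum in KO endometrium was below the lowest in KO myometrium. Their part in the layer differences of the members was not tested.

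**Figure D3:**
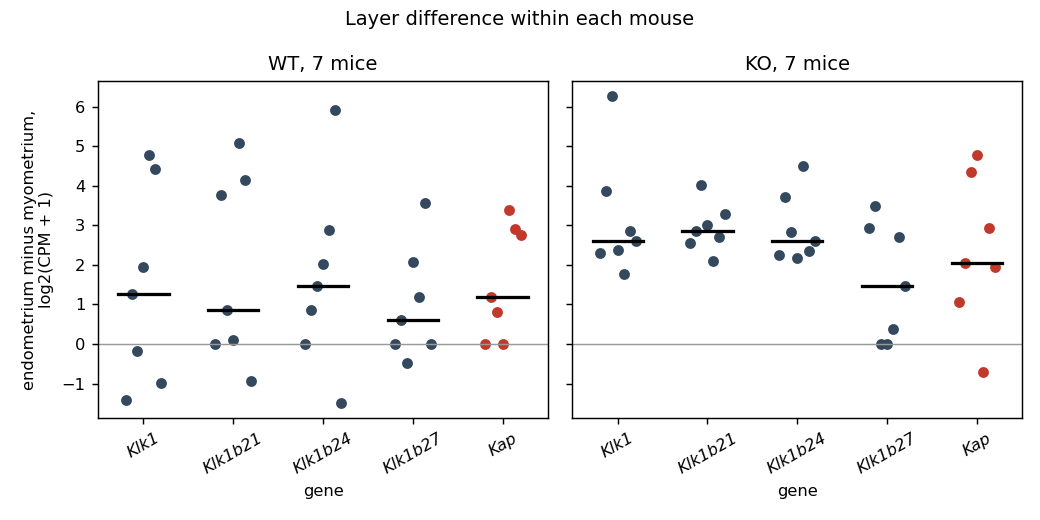
Endometrium minus myometrium of each mouse on the log2(CPM + 1) scale for 5 members, WT mice left and KO mice right, 7 points per gene, with a bar at the median. All 7 KO mice lie above 0 for Klk1, Klk1b21 and Klk1b24, while 3 WT mice lie below 0 for Klk1, and mice at 0 in both layers sit on the line.

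KO and WT were then compared in each tissue. No member was called. In uterus the mean level of Klk1 was 193 ± 305 CPM (SD, n = 7) in WT and 808 ± 1405 CPM in KO, a log2 fold change of 2.06 ± 1.07 (SE), with an adjusted p of 0.872 in edgeR's quasi-likelihood test over 12959 genes. Klk1b21 differed by 1.46 ± 0.76, Klk1b24 by 1.73 ± 0.90 and Klk1b27 by 1.20 ± 0.87, with adjusted p of 0.872, 0.872 and 0.920. Kap differed by −0.00058 ± 1.00, with means of 125 ± 277 CPM in WT and 125 ± 175 CPM in KO. The SD of every group exceeded its mean for both genes.

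In endometrium the log2 fold change of KO over WT was 1.30 ± 1.03 for Klk1, 1.32 ± 0.78 for Klk1b21, 0.91 ± 0.90 for Klk1b24, 0.34 ± 0.82 for Klk1b27 and −0.026 ± 1.05 for Kap, with adjusted p from 0.959 to 0.998 in edgeR. In myometrium it was 1.24 ± 0.72 for Klk1, 1.74 ± 0.67 for Klk1b21, 2.53 ± 0.73 for Klk1b24, 0.37 ± 0.87 for Klk1b27 and −1.68 ± 0.95 for Kap, with adjusted p from 0.844 to 1.000. The members tested were 5 in each tissue, and Klk1b3, Klk1b5 and Klk1b22 did not pass the filter on low counts.

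These counts have to be read beside the whole table. At an adjusted p under 0.05, edgeR called 0% of the genes in uterus, endometrium and myometrium and in the interaction. At an unadjusted p under 0.05 it passed 5.64% of 12959 genes in uterus, 5.20% of 13004 in endometrium, 4.22% of 12991 in myometrium and 4.60% of 14314 in the interaction. Of the members, 0 passed that mark in uterus and endometrium, and 2 in myometrium, namely Klk1b24 (adjusted p = 0.844 in edgeR) and Klk1b21 (adjusted p = 1.000). The number that passed turned with single mice. Without WT mouse 10, 4 of 5 members passed in uterus (725 of 12727 genes) and 4 of 5 in endometrium (787 of 12812 genes). With another mouse left out, 0 to 3 passed in uterus and 0 or 1 in endometrium. In myometrium 1 to 4 passed when any mouse was left out. DESeq2 called 0.0540% of the genes in uterus, 0.00769% in endometrium and 0% in myometrium and in the interaction, and no member in any of them.

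Single mice decided the size of these differences. In uterus the log2 fold change of Klk1 was 0.69 without KO mouse 13 and 3.26 without WT mouse 10. In endometrium it was 0.39 and 4.00, with an edgeR adjusted p of 0.272 in the latter. In myometrium it was 0.39 without KO mouse 13 and 2.20 without WT mouse 5. The Klk1b genes depended on KO mouse 13 as well. Without it the values for uterus, endometrium and myometrium were 0.59, 0.92 and 1.39 for Klk1b21, 0.56, 0.37 and 1.73 for Klk1b24, and 0.35, −0.20 and 0.11 for Klk1b27. Kap changed more, from −0.00058 to 2.65 in uterus, from −0.026 to 3.02 in endometrium and from −1.68 to 3.58 in myometrium once WT mouse 5 was left out, and no adjusted p of a member was below 0.237 when any mouse was left out. The sign of Kap in KO against WT thus turned with 1 WT mouse.

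Some cell markers also differed between the genotypes at an unadjusted p under 0.05, though none was called in edgeR. The epithelial marker Krt8 was at 266 ± 146 CPM (SD, n = 7) in WT and 440.2 ± 174 CPM in KO uterus, and at 327 ± 158 and 548 ± 261 CPM in endometrium. It was 1 of 4 epithelial markers to pass, and their sum ranged from 486 to 1311 CPM in WT and from 613 to 1775 CPM in KO uterus. Ovgp1 was at 45.2 ± 37.1 CPM in WT and 12.2 ± 6.92 CPM in KO uterus, and at 771 ± 1876 and 165 ± 165 CPM in endometrium. Lrp2 (endometrium and myometrium), the mesothelial marker Msln (endometrium), the adipocyte marker Cfd (myometrium) and the stromal markers Col1a1 and Pdgfra (myometrium) passed as well. These were named after their values were seen, and their part in the member differences was not tested.

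The plate rows of the library plate also divided the mice. Rows A to C held 5 WT and 3 KO mice and rows D to F 2 WT and 4 KO mice. For Klk1, mice of rows A to C gave a log2 fold change of 0.53 ± 0.90 for uterus, 2.89 ± 0.75 for endometrium and 0.14 ± 0.93 for myometrium. Mice of rows D to F gave 1.61 ± 1.53, 0.11 ± 1.57 and 1.63 ± 0.83. Kap was −1.04 ± 1.5, −0.36 ± 1.38 and −3.32 ± 1.41 in rows A to C and 2.60 ± 1.05, 2.13 ± 1.24 and 3.29 ± 1.09 in rows D to F. WT mouse 5, the highest for Kap, lay in rows A to C. No member was called within either set of rows, and the smallest adjusted p was 0.401, for Klk1b24 in endometrium of rows A to C in edgeR. In that tissue and set of rows, 4 of 5 members and 628 of 11483 genes had an unadjusted p under 0.05 in edgeR. In the other tissues and sets of rows 0 to 3 members did.

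**Figure D4:**
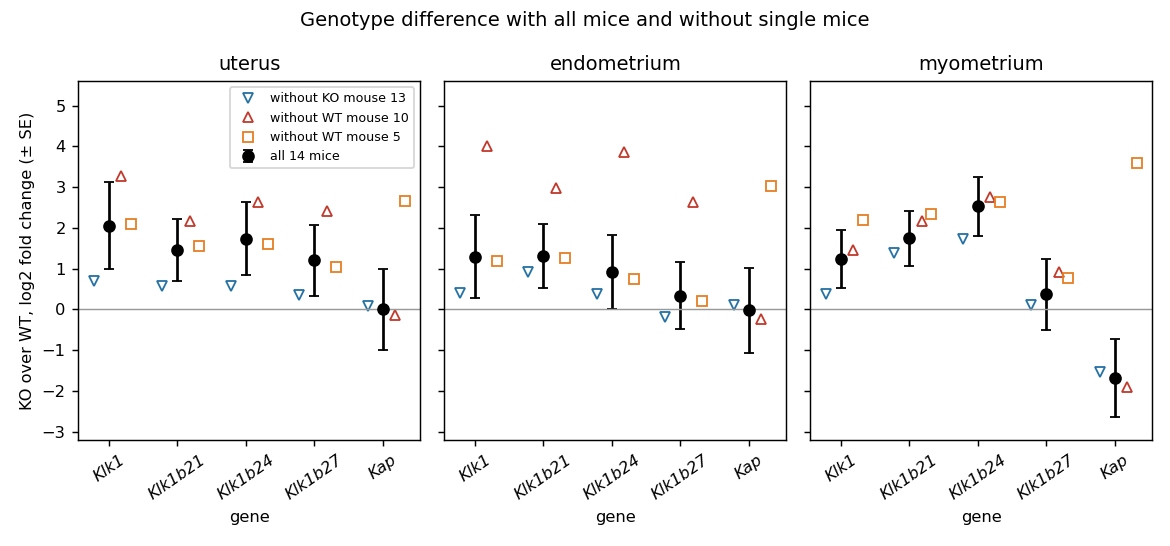
Log2 fold change of KO over WT for 5 members in uterus, endometrium and myometrium. Filled circles with bars are the fit with all 14 mice ± SE, and open symbols are fits without KO mouse 13, WT mouse 10 or WT mouse 5. The kallikreins moved up without WT mouse 10 in endometrium (Klk1 from 1.30 to 4.00), and Kap moved up without WT mouse 5 in all 3 tissues.

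The genotype by layer interaction of no member was called. The interaction, which is the log2 fold change of endometrium over myometrium in KO minus that in WT, was 0.088 ± 1.47 (SE) for Klk1, −0.43 ± 1.15 for Klk1b21, −1.62 ± 1.45 for Klk1b24, −0.043 ± 0.82 for Klk1b27 and 1.66 ± 1.65 for Kap, with adjusted p from 0.993 to 1.000 in edgeR. Klk1b3, with 15 counts in all, passed the filter here and had −1.69 ± 1.24. Each SE was derived from the F statistic of the test and is approximate, least reliable where the value is small. With the mouse as a block, the interaction of Klk1 was 1.35 ± 0.43 (unadjusted p = 0.0176, adjusted p = 1 in edgeR), and 10 of all genes but no member were called.

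Klk1 also held most of the counts of the 4 counted kallikreins in most mice. 5′-end counts do not scale with transcript length, so shares compare molecules as they were assigned to the copies. The copies differ in how much of their 5′ end sets them apart, as given above, and the shares carry that uncertainty. Over the 24 samples with at least 50 counts of the 4 genes, from 11 mice, the median share was 77.0% for Klk1, 13.0% for Klk1b21, 10.2% for Klk1b24 and 1.40% for Klk1b27. Summed over the 3 tissues, KO mouse 13, the deepest at 11377 counts, had 83.0% Klk1 (95% Wilson interval 82.3 to 83.7), KO mouse 14 80.0% (78.3 to 81.6) and WT mouse 10 76.8% (75.3 to 78.2).

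KO mouse 11 departed from this, a case picked after the values were seen. Klk1b21 made up 44.6% (95% Wilson interval 39.6 to 49.8) of its 361 counts and Klk1 39.3% (34.4 to 44.5), whereas in the 5 mice with the most counts Klk1b21 was 7.52 to 14.1%. The order was reversed in its endometrium (113 counts of Klk1b21 and 64 of Klk1) and in its myometrium (24 and 17) but not in its uterus (24 and 61). The Wilson intervals of the shares of Klk1b21 and Klk1 were apart in endometrium (44.8 to 57.9% and 23.5 to 35.4%). In myometrium they overlapped (40.1 to 68.3% and 25.7 to 53.4%). WT mouse 8 had 43.1% Klk1b21 (31.8 to 55.2) of 65 counts, of which 26 of 28 came from the endometrium in which Ovgp1 was at its highest. Every other sample, those of KO mouse 11 included, had 467 CPM of Ovgp1 or less. The part of Ovgp1-expressing tissue in these shares was not tested. These intervals cover counting error only.

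**Figure D5:**
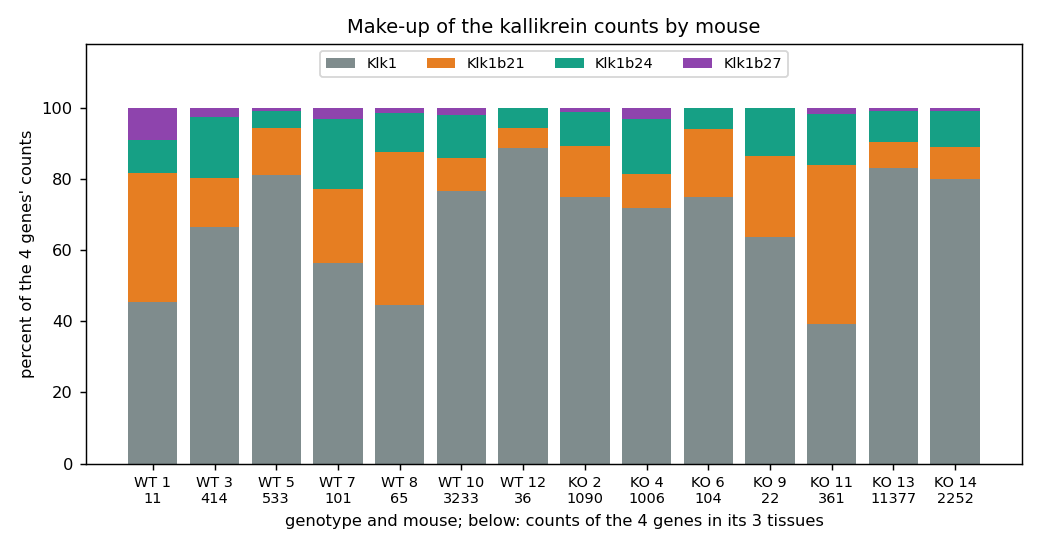
Percent of the counts of Klk1, Klk1b21, Klk1b24 and Klk1b27 held by each gene in each mouse, summed over its 3 tissues, with the number of counts under each bar. Klk1 held the largest share in every mouse but KO mouse 11, where Klk1b21 held 44.6%, and bars over 11, 22 or 36 counts are imprecise.

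Genes with the most similar pattern were found by the r of log2 CPM over 42 samples after each tissue mean was removed, among 8175 other genes. For Klk1 they were Ces2b, a carboxylesterase (r = 0.87), Hsd11b1, which regenerates active glucocorticoid (0.87), Napsa, an aspartic protease (0.86), Paqr5, a membrane progestin receptor (0.86), and Fbln1, a matrix protein (0.85). For Klk1b24, the kallikrein next in mean level, they were Ces2b (0.88), Tmed6, a secretory pathway protein (0.86), Hsd11b1 (0.86), Gpx3, a secreted glutathione peroxidase (0.83), and Paqr5 (0.82), so 3 genes stood in both lists. For Kap they were Prap1, a secreted epithelial protein (0.77), Akr1c19, an aldo-keto reductase (0.74), Car2, a carbonic anhydrase (0.73), Gm12942 (0.70) and Ccdc109b (0.68), and none of these stood in the lists of the kallikreins. The samples share mice and libraries, and the r values are a description.

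The partners of the kallikreins were examined by lists, in which no gene was called in any tissue or in the interaction by edgeR. Of 21 other tissue kallikrein genes, 20 were in the table, 11 were at 0 in every sample and 4 reached 3 counts in any sample. Klk8, a protease of skin and brain, was the 1 gene of that list tested in each tissue, at a mean of 4.96 to 9.13 CPM in the 6 groups, and its log2 fold change of KO over WT was −0.31 ± 0.48 in uterus.

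Of the kinin system, all 12 genes were in the table and 7 to 9 were tested. The substrates were low, with Kng2, a kininogen, at a mean of 1.91 to 5.07 CPM and Kng1 at 0.423 CPM or less. The receptors Bdkrb1 and Bdkrb2 had means of 1.29 CPM or less in every group. The most abundant genes of the list were Serping1, the inhibitor of plasma kallikrein and C1 (393 to 1029 CPM), the kinin-degrading peptidase Mme (27.4 to 37.7 CPM) and the carboxypeptidase Cpd (14.6 to 26.1 CPM). An unadjusted p under 0.05 was reached by Cpn1, a subunit of the kinin-cleaving carboxypeptidase N, in uterus (0.586 ± 1.22 CPM in WT and 3.31 ± 2.62 CPM in KO) and by Serping1 in myometrium (716 ± 124 and 925 ± 332 CPM).

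Of the serine protease inhibitors, 9 of 10 were in the table and 6 or 7 were tested. Spint2 was at 165 to 166 CPM in myometrium and 274 to 382 CPM in the other groups, and Slpi at 13.5 to 85.6 CPM. In uterus 3 genes of this list passed an unadjusted p of 0.05, with a smallest adjusted p of 0.612 in edgeR. They were Serpinb5, with means of 1.42 ± 0.866 CPM (SD, n = 7) in WT and 8.25 ± 9.97 CPM in KO, Serpina3c, with 24.3 ± 19.1 and 8.37 ± 3.89 CPM, and Serpina3n, with 13.6 ± 8.69 and 6.05 ± 2.74 CPM. Serpina3n also passed it in endometrium, at 19.3 ± 19.6 CPM in WT and 8.80 ± 6.05 CPM in KO. Genes of these lists that passed only the unadjusted mark are named after their values were seen.

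Of 9 growth factors and receptors cut by kallikreins, 6 or 7 were tested. Mmp2, a gelatinase, was the most abundant at 115 to 207 CPM, followed by Igfbp3 at 16.5 to 43.7 CPM and Ngfr, the low-affinity nerve growth factor receptor, at 15.5 to 40.4 CPM. In endometrium 2 genes of the list passed an unadjusted p of 0.05, Ngfr with a log2 fold change of KO over WT of 1.37 ± 0.41 (adjusted p = 0.765 in edgeR) and Igfbp3, which binds insulin-like growth factors, with −1.34 ± 0.58 (adjusted p = 0.937). Of 6 steroid receptors, 5 were tested. Esr1, the estrogen receptor, was at 56.5 to 111 CPM, with a log2 fold change of KO over WT of 0.30 ± 0.33 in uterus, 0.44 ± 0.31 in endometrium and 0.27 ± 0.23 in myometrium, while Esr2 was at 0 in every sample.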

How the data were processed

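RNA (10 ng a sample) from uterus, endometrium and myometrium of 7 WT and 7 KO mice was sequenced as 45 STRT libraries in 1 pool. The authors joined reads by molecular tag, trimmed them, aligned them to mm9 with TopHat, counted them over UCSC genes and ERCC spike-ins with Homer and deposited raw counts per gene. The submitters' processing notes also name HTSeq, and the handling of strand and of reads with several positions is not given in the sources used here. Counts hold 24422 genes and 92 spike-ins, and no authors' comparison was used.

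Libraries with the same mouse and tissue label (3 for KO mouse 13 endometrium and 2 for WT mouse 12 myometrium) were summed. This gave 42 samples, and no pair of libraries held identical counts. Replicates were separate mice. The fit took genes that reached 1 CPM in 5 or more of its samples and was made with edgeR 4.0.16 (R 4.3.3, TMM factors, quasi-likelihood F test, Benjamini-Hochberg adjustment over all genes, called at an adjusted p under 0.05). DESeq2 1.42.0 was an alternative. Log2 CPM used a prior count of 2. Tests were of KO against WT, tissue by tissue, and of the genotype by layer interaction. The 3 tissues of a number come from the same mouse, so the mouse as replicate block was fitted as an alternative for the layer results, and the r values between the tissues of a mouse are given in the text. Tests were checked on simulated data with independent samples and the spread typical of genes at each level. The members spread more between mice than most genes, so the check does not cover tests of genes this variable. The other alternatives were size factors, spike-in scaling, gene filters, 1 library a mouse, summed kallikrein rows, plate rows, the layer score as covariate and each mouse left out.

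The members and gene lists were chosen with earlier results of these data known. All 8 members were named. For likeness, the 5 genes with the highest r were named for Kap and for the 2 kallikreins with the highest mean CPM, and from each list up to 5 genes with the highest means, beside genes named for their role or for an unadjusted p, which were chosen after their values were seen. Binomial intervals (Wilson), exact Poisson intervals and the floor of 3 counts cover counting error only. Positions and windows come from the NCBIM37 genome and annotation.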

Additional observations from a re-analysis of the deposited data

Results flagged for a closer look

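In 36 groups of member levels and shares, a sample was set apart by its gap to the nearest of the others. The gap, over the range of the group, had to exceed Dixon's 95% critical value. The rule only marks samples and is no test, because the members were chosen with differences between mice known. The groups also share mice and libraries. A sample was set apart in 6 groups. In WT endometrium, mouse 10 stood above the other mice for Klk1b24, with a log2 CPM of 8.44, and for Klk1b27, with 5.79. In WT myometrium, mouse 5 stood above the other mice for Kap, with a log2 CPM of 8.99, and the myometrium of this mouse also had the highest layer score of its group (−4.23).

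The share of Klk1b21 among the counts of Klk1, Klk1b21, Klk1b24 and Klk1b27 set apart mouse 8 in WT endometrium at 49.1%, mouse 11 in KO endometrium at 51.4% and mouse 11 in KO myometrium at 54.5%. The counts behind these shares were 26 of Klk1b21 beside 21 of Klk1 in mouse 8, and 113 beside 64 and 24 beside 17 in mouse 11. The part of read assignment between near-identical copies in these shares was not tested.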

How the results depend on the processing

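No member was called for KO against WT or the interaction under any setting run, DESeq2 and an adjusted p under 0.1 included. The layer median of the members in WT ranged from 0.97 (without WT mouse 10) to 3.75 when each mouse was left out and that in KO from 2.53 to 2.87, and with spike-in scaling the KO median was 3.25, where the median of all genes was 0.58 (0.21 in WT). The replicate block by mouse gave 2.21 in WT and 2.80 in KO and left no member called in the interaction, though 10 of all genes were called, against 0 without it. DESeq2 gave WT layer values of 0.08 for Klk1 and 1.38 for Klk1b24. The median agreement between tissues was 0.81 to 0.86 under its alternatives.

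Signs of single members turned as follows, and the cause was not tested. For KO over WT, Kap in uterus was 0.017 with relative log expression factors, 0.016 with no gene filter, 0.00039 with kallikrein rows summed, 0.018 in DESeq2, 0.25 with plate rows as covariate, 2.60 within rows D to F, 0.013 with 6 groups in 1 fit and 0.079 with the layer score, and −0.98 to 2.65 with a mouse left out. Kap in endometrium was 0.49 with spike-in scaling, 0.60 with plate rows, 2.13 within rows D to F and 0.15 with the layer score, and −0.68 to 3.02 with a mouse left out. Kap in myometrium was 1.94 in DESeq2, 3.29 within rows D to F and 1.39 with the layer score, and −3.14 to 3.58 with a mouse left out. In endometrium Klk1b24 was −0.34 within rows D to F, and Klk1b27 was −0.073 with 1 library a mouse and −0.20 to 2.64 with a mouse left out. In the interaction Klk1 was −0.0027 with relative log expression factors, −0.20 with 1 library a mouse and −0.11 for the summed family rows, Klk1b21 was 0.14 with the replicate block, and Klk1b27 was 0.35 with spike-in scaling and 0.23 with the replicate block. With a mouse left out the interaction was −1.003 to 2.58 for Klk1, −1.08 to 0.82 for Klk1b21, −2.05 to 1.12 for Klk1b24, −0.56 to 1.72 for Klk1b27 and −0.58 to 2.53 for Kap. At 256298 to 1222627 counts a library, Klk1b3, Klk1b5, Klk1b22 and most myometrial Klk1b27 values were within a few counts of 0.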
